A study of Homo sapiens with 9 samples.

Results

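The 8 genes described here are the clade B serpins SERPINB1, SERPINB2, SERPINB3, SERPINB4, SERPINB5, SERPINB7, SERPINB8 and SERPINB13, taken by symbol from a table of 25369 gene symbols. All 8 had counts, and all 8 passed the filter on low counts, which left 16117 genes. Several members passed it only through the libraries in which they were high. RNA was sequenced from 9 libraries of MCF10A, an established human mammary epithelial cell line with basal features that does not form tumours. All cells had been transduced with a retroviral vector, which was either empty (called empty-vector cells) or carried a constitutively active HER2, the receptor tyrosine kinase encoded by ERBB2 (called HER2 cells). All had been transfected with a control siRNA or with siRNA against YAP and TAZ, the transcriptional co-activators encoded by YAP1 and WWTR1. After 24 h the cells were replated on plastic or, with control siRNA only, on a polyacrylamide hydrogel of 0.5 kPa, a support much softer than plastic, and they were harvested 24 h later. On plastic, 4 libraries came from empty-vector cells, namely controls A and B and YAP/TAZ siRNA reagents 1 and 3, and 3 from HER2 cells, namely 1 control and the same reagents 1 and 3. The soft hydrogel gave 1 library in each line. The labels do not say whether libraries came from separate cultures or how many transductions each line rests on. The p-values therefore measure the spread between these libraries, which may be technical. In the model of group means used below, reagents 1 and 3 are taken as replicates, so its spread includes the difference between reagents. HER2 and any other difference between the populations of cells cannot be told apart.

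Serpins are protease inhibitors that offer an exposed reactive centre loop as bait. The protease cuts the loop, the serpin refolds and the enzyme is trapped. Clade B members lack a classical secretion signal and act mainly inside cells, where they protect epithelia and leukocytes from their own proteases. In squamous and basal epithelia several of them accompany stratification. SERPINB5, known as maspin, lost the inhibitory function and has long been studied as a tumour suppressor of mammary epithelium. In the human genome most of the family lies in 1 run of genes on chromosome 18q21, and a smaller run that includes SERPINB1 lies on 6p25.

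SERPINB3 and SERPINB4 are close copies, so a stretch of their coding sequences is shown to let a reader see how much of a read can tell them apart. Over 1173 coding bases in GENCODE v29 transcripts (GRCh38, chromosome 18, minus strand) the pair differed at 56 bases and was 95.2% identical, and the longest run without a difference was 129 bases. The 90 bases that differ most (coding positions 970 to 1059, 13 differences, in capitals) encode part of the reactive centre loop and its hinge.
SERPINB3: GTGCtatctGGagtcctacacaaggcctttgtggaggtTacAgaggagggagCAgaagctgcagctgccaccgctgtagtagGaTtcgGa
SERPINB4: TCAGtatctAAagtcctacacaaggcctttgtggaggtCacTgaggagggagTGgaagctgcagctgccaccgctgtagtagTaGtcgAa
Of the 50-base words in the exons of SERPINB3, 51.6% also occur in another gene, and of those of SERPINB4 20.1% occur in SERPINB3. SERPINB3 also overlaps SERPINB11 on the opposite strand, which held 0 counts in all 9 libraries. SERPINB2 shares exons on the same strand with SERPINB10 (18.2% of its words), and SERPINB8 shares 8.92%, chiefly with its neighbour HMSD. SERPINB7 and SERPINB13 share none. How the authors counted such reads, and whether by strand, is not given in the sources used here, so the separate levels of SERPINB3 and SERPINB4 are uncertain.

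RefSeq promoters (GRCh38.p14, 250 bases before to 50 after each start) were found for all 8 members, and they are shown because the difference between lines varied among the members. SERPINB7 has 3 such windows and each of the others 1, and a member is counted when any of its windows holds the letters, whereas the shares are per window. The motif of AP-1, the transcription factor family downstream of growth factor receptors, was searched as TGANTCA on both strands, and that of TEAD, the DNA-binding partner of YAP and TAZ, as GGAATG on both strands. The AP-1 letters occur in 7.71% of all 35116 promoters and in those of 5 of the 8 members, SERPINB2, SERPINB5, SERPINB7, SERPINB8 and SERPINB13. The windows of 80 bases below hold the match (in capitals) of SERPINB2 at chr18:63887573-63887652, SERPINB5 at chr18:63476782-63476861, SERPINB13 at chr18:63587226-63587305 and SERPINB8 at chr18:63969866-63969945, all on the plus strand.
SERPINB2: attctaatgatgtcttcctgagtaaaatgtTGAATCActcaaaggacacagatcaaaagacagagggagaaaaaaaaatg
SERPINB5: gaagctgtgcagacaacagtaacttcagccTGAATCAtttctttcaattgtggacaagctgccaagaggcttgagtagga
SERPINB13: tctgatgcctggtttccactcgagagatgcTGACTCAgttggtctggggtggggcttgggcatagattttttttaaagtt
SERPINB8: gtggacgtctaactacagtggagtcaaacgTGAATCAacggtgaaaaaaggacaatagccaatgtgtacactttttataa
These matches begin 102, 146, 87 and 185 bases before the start, in the order of the lines, and SERPINB8 has another match 28 bases before it. The TEAD letters occur in 14.0% of all promoters and, among the members, in SERPINB3 and SERPINB4 only, 8 bases before the start and on the minus strand of the gene (CATTCC as printed). The promoters of this pair differ at 4 of 300 bases (98.7% identical), as the 80 bases before the start show for SERPINB3 at chr18:63661894-63661973 and SERPINB4 at chr18:63644257-63644336, both on the minus strand.
SERPINB3: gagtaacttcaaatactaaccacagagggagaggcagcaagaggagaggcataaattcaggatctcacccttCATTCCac
SERPINB4: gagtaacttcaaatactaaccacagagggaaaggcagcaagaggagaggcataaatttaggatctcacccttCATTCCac
Of the other motifs searched, TATAAA was present in 4 of the 8 members (11.5% of all promoters) and TTCNNNGAA, read by STAT factors, in 3 (7.66%). AACCGGTT (0.134%) and CCACACCC (3.28%), the letters of grainyhead and KLF motifs, and the NF-kB motif (0.191%) were found in 0 of the 8 members. A match is a run of letters and not a shown binding site.

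The libraries held 24425556 counts (the HER2 control on plastic) to 78945981 (empty-vector cells with siRNA 3), and 3 counts, used as the floor, correspond to 0.0371 to 0.131 CPM (counts scaled to the size of the library after TMM normalization). ERBB2 checked the labels, at 59.1 ± 2.01 CPM (SD, n = 2) in the empty-vector controls. Over the groups of HER2 cells it was at 401 ± 56.8 (YAP/TAZ siRNA, SD over reagents 1 and 3, n = 2) to 614 CPM (control on plastic). In empty-vector cells YAP1 was at 84.5 ± 0.84 CPM with control siRNA and at 14.3 ± 0.0171 with YAP/TAZ siRNA (SD, n = 2 each, the latter over reagents 1 and 3). In HER2 cells on plastic YAP1 was at 115 CPM in the control, 9.75 after siRNA 1 and 18.9 after siRNA 3. WWTR1 was at 169.6, 29 and 48.2 CPM in the same libraries. In empty-vector cells WWTR1 was at 77.4 and 76.9 CPM in controls A and B, 14 after siRNA 1 and 21.6 after siRNA 3. Markers of the basal mammary epithelium differed by line. Their summed level was 5354 to 14693 CPM in the 5 empty-vector libraries and 1409 to 2471 in the 4 HER2 libraries. Of the 9 markers 7 were lower in HER2 cells. Over all genes tested, 15.6% were called lower in the comparison of lines described below. TP63, which defines basal cells, was at 69.3 to 160.3 CPM against 0.438 to 0.971. The ranges of ITGA6 (578 to 2104 against 624 to 1147 CPM) and, at their edges, ITGB4 (127 to 484 against 49.1 to 128) overlapped. Of 5 general epithelial markers 4 were lower, with sums of 488 to 1745 against 213 to 304 CPM. Here the ranges of KRT18 (112 to 226 against 92.3 to 148 CPM) and KRT8 (110.1 to 211 against 60.4 to 123) overlapped. The sums were 98.2 to 405 against 13.5 to 132 CPM for 7 fibroblast markers, 6.71 to 30.1 against 6.61 to 20.2 for 6 leukocyte markers with CD3E at 0, 3.19 to 23.3 against 13.1 to 37.9 for 4 endothelial markers, and 0.0565 to 1.05 against 0.263 to 21.6 for 3 adipocyte markers with LEP at 0. The HER2 libraries thus carry less of the basal markers that MCF10A is known for, and the share of this in the results on serpins was not tested. In such bulk libraries, fewer cells of a type and less RNA per cell cannot be told apart.

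In empty-vector control cells the 8 transcripts covered a wide range of levels. Per kilobase of exon, SERPINB5 was highest at 184 ± 1.09 CPM per kb, followed by SERPINB2 at 58 ± 0.932, SERPINB1 at 24.7 ± 1.31 and SERPINB8 at 10.8 ± 0.422 (SD, n = 2 each). SERPINB7 (4.09 ± 0.34), SERPINB13 (3.06 ± 0.121), SERPINB3 (2.5 ± 0.0896) and SERPINB4 (0.529 ± 0.0152) were lower, in the same unit and with the same n. Each neighbouring pair in this order was separated by more than the spread of its 2 libraries. That spread does not cover the choice of exon length, which was taken over all annotated transcripts of a gene. By CPM alone SERPINB13 (13.9) was above SERPINB7 (10.8). The order changed in HER2 control cells on plastic, where SERPINB5 was at 49.7, SERPINB1 at 13.4 and SERPINB8 at 11.6 CPM per kb, SERPINB3, SERPINB4, SERPINB7 and SERPINB2 were between 0.0796 and 0.591, and SERPINB13 was at 0 (1 library).

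**Figure D1:**
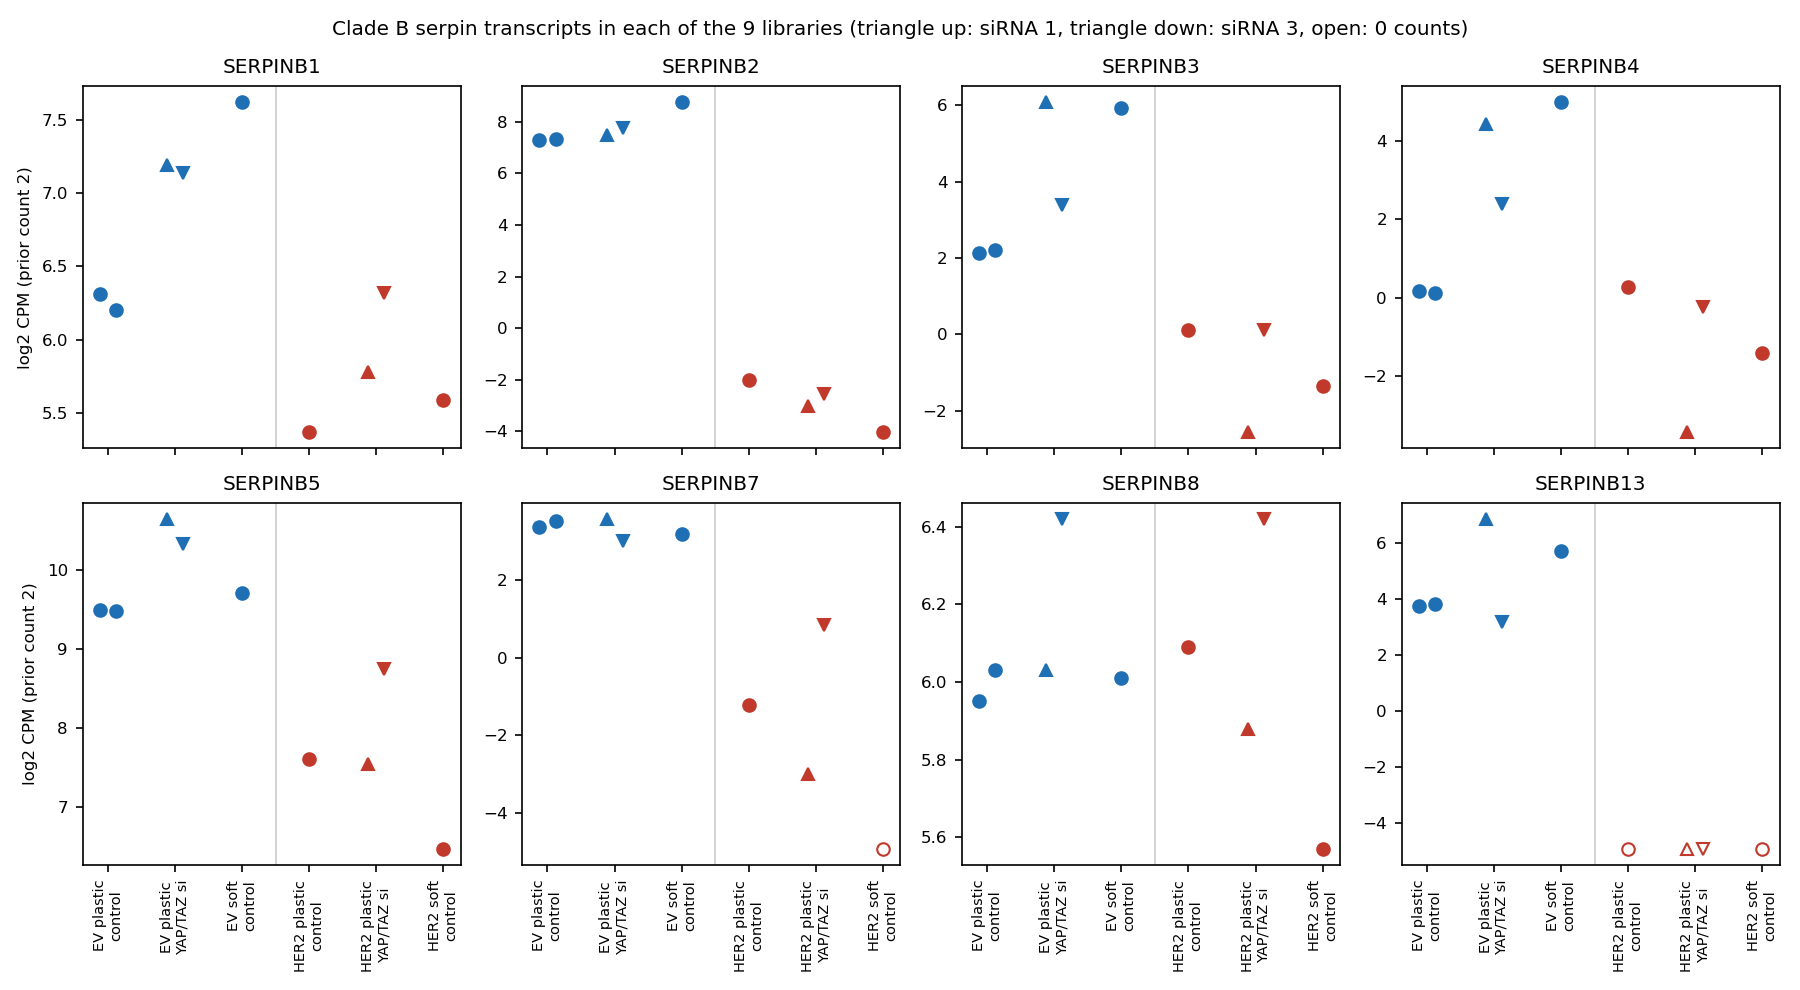
Level of each member on the y axis, as log2 CPM with a prior count of 2, in every library of the 6 groups on the x axis. Blue marks are empty-vector (EV) libraries and red marks HER2 libraries, upward and downward triangles are YAP/TAZ siRNA 1 and 3, open marks have 0 counts, and each panel has its own y range. SERPINB2, SERPINB3, SERPINB5, SERPINB7 and SERPINB13 have every red mark under every blue mark, and SERPINB8 has the lines at overlapping heights.

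Activated HER2 went with lower levels of 7 of the 8 members when the difference between lines was averaged over the 3 settings (control siRNA on plastic, control siRNA on the soft hydrogel, YAP/TAZ siRNA on plastic). SERPINB1, SERPINB2, SERPINB3, SERPINB4, SERPINB5, SERPINB7 and SERPINB13 fell and SERPINB8 did not pass the test (edgeR quasi-likelihood F test in a model of the 6 group means, Benjamini-Hochberg adjusted over 16117 genes, threshold 0.05). Over all genes tested, 15.6% were called lower in this comparison and 25.8% in either direction, and the median log2 fold change was -0.09 against -4.47 for the 8 members. Every library of HER2 cells lay under every empty-vector library for 5 members, which 12.5% of all genes did in that direction.

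SERPINB2, the inhibitor of the plasminogen activators urokinase and tPA also known as PAI-2, showed a difference between lines that no library blurred. It was at 158 and 161 CPM in controls A and B of the empty-vector line, at 178 after siRNA 1, at 217 after siRNA 3 and at 428 on the soft hydrogel. The 4 HER2 libraries held 21 counts of it in all against 70922 in the empty-vector libraries, and their levels were 0.219 CPM in the control on plastic, 0.0908 after siRNA 1, 0.136 after siRNA 3 and 0.0285 on the hydrogel. The mean log2 fold change over settings was -11.34 ± 0.28 (SE, edgeR adjusted p = 3.27e-04). SERPINB2 was also the member that passed in each setting taken alone, with log2 fold changes of -9.50 ± 0.46 on plastic (SE, edgeR adjusted p = 0.0118) and -10.75 ± 0.34 with YAP/TAZ siRNA (SE, edgeR adjusted p = 0.00141). On the hydrogel (edgeR adjusted p = 0.00536) the HER2 library held 2 counts, a ratio of 15052 with an exact 95% counting interval of 4166 to 124296, which covers counting error only. The call on plastic was lost without empty-vector control A (edgeR adjusted p = 0.143) or control B (0.141), which leaves no replicated control, though the log2 fold changes were -9.44 and -9.41. The neighbouring gene SERPINB10, which shares exons with SERPINB2, held 85 counts in empty-vector cells and 0 in HER2 cells (mean log2 bound -2.29, edgeR adjusted p = 0.027).

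SERPINB13, an inhibitor of cathepsins L and K found in skin, had 0 counts in all 4 HER2 libraries, where 3 counts would be 0.0427 to 0.131 CPM. In empty-vector cells it was at 13.5 and 14.2 CPM in controls A and B, 116 after siRNA 1, 9.15 after siRNA 3 and 53.3 on the hydrogel. SERPINB13 was thus at least 106-fold lower in HER2 cells on plastic, at least 1249-fold lower on the hydrogel and at least 2604-fold lower with YAP/TAZ siRNA, each against a floor of 3 counts over the HER2 group. The mean of these log2 bounds over settings was -9.45, and the test over settings gave an edgeR adjusted p of 0.011. With YAP/TAZ siRNA alone it also passed (edgeR adjusted p = 0.0404), but not without control A or B (0.091 each), HER2 siRNA 1 (0.106) or HER2 siRNA 3 (0.0607).

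SERPINB7, first named megsin after kidney mesangial cells and mutated in a human palmoplantar keratosis, varied little among empty-vector libraries. It was at 10.1 and 11.4 CPM in controls A and B, 11.7 after siRNA 1, 7.92 after siRNA 3 and 8.97 on the hydrogel. The HER2 libraries were all lower and spread widely, at 0.394 CPM in the control, 0.0908 after siRNA 1, 1.75 after siRNA 3 and 0 on the hydrogel. The mean log2 fold change, with the hydrogel at its floor, was -5.30 (edgeR adjusted p = 0.0156). On the hydrogel SERPINB7 was at least 210.2-fold lower in HER2 cells.

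SERPINB5 (maspin) was the most abundant member in both lines and still fell. It was at 726 and 720.0 CPM in controls A and B of the empty-vector line, 1602 after siRNA 1, 1291 after siRNA 3 and 838 on the hydrogel. In HER2 cells it was at 196 CPM in the control, 187 after siRNA 1, 430.5 after siRNA 3 and 88.5 on the hydrogel, so that no library of one line reached the other. The mean log2 fold change was -2.45 ± 0.31 (SE, edgeR adjusted p = 0.00657). With YAP/TAZ siRNA alone it was -2.23 ± 0.41 (SE, edgeR adjusted p = 0.0412), a call that was lost without control A (0.108), control B (0.109), empty-vector siRNA 1 (0.147) or empty-vector siRNA 3 (0.087).

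SERPINB1, the inhibitor of neutrophil elastase and related proteases, showed the smallest of the 7 decreases. It was at 79.2 and 73.5 CPM in controls A and B of the empty-vector line, 146 after siRNA 1, 141 after siRNA 3 and 197 on the hydrogel. In HER2 cells it was at 41.4 CPM in the control, 54.7 after siRNA 1, 79.9 after siRNA 3 and 48.0 on the hydrogel, and the siRNA 3 library overlapped the empty-vector controls. Setting by setting the HER2 level was the lower, and the mean log2 fold change was -1.34 ± 0.17 (SE, edgeR adjusted p = 0.00697).

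SERPINB3, an inhibitor of lysosomal cysteine proteases, and SERPINB4, an inhibitor of chymotrypsin-like serine proteases, are the squamous cell carcinoma antigens 1 and 2. SERPINB3 was at 4.32 and 4.55 CPM in controls A and B of the empty-vector line, 67.1 after siRNA 1, 10.4 after siRNA 3 and 60.9 on the hydrogel, against 1.05 in the HER2 control, 0.136 after siRNA 1, 1.06 after siRNA 3 and 0.356 on the hydrogel. SERPINB4 was at 1.09 and 1.04 CPM in controls A and B, 21.2 after siRNA 1, 5.22 after siRNA 3 and 31.2 on the hydrogel, against 1.18 in the HER2 control, 0.0605 after siRNA 1, 0.818 after siRNA 3 and 0.342 on the hydrogel. For SERPINB4 the lines overlapped, because the controls on plastic were at about the same low level. The mean log2 fold change was -5.17 ± 0.97 for SERPINB3 (SE, edgeR adjusted p = 0.0171). For SERPINB4 it was -3.76 ± 0.89 (SE, edgeR adjusted p = 0.0319), and this call was lost without control A (0.075), control B (0.0714) or empty-vector siRNA 1 (0.0591). On plastic with control siRNA the log2 fold change of SERPINB4 was 0.15 ± 1.37 (SE, edgeR adjusted p = 0.978). When the counts of both copies were summed, the mean log2 fold change was -4.67 ± 0.96 (SE, edgeR adjusted p = 0.0215) and that on plastic -1.30 ± 1.45 (0.68). SERPINB3 gives most of the counts of this sum in the empty-vector controls, so it does not settle the sign of SERPINB4 alone.

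SERPINB8, an inhibitor of furin, the protease that cuts proproteins in the secretory pathway, was the member with no detectable difference. It was at 61.7 and 65.2 CPM in controls A and B of the empty-vector line, 65.1 after siRNA 1, 85.8 after siRNA 3 and 64.4 on the hydrogel, and at 68.3 in the HER2 control, 58.9 after siRNA 1, 85.7 after siRNA 3 and 47.5 on the hydrogel. The ranges of the lines overlapped, though the HER2 levels after siRNA 1 (58.9) and on the hydrogel (47.5) lay under every empty-vector library. The mean log2 fold change was -0.13 ± 0.18 (SE, edgeR adjusted p = 0.639) with a 95% confidence interval of -0.58 to 0.32. SERPINB6, another clade B serpin of broad expression, had the same value, -0.13 ± 0.18 (SE, edgeR adjusted p = 0.635; interval -0.57 to 0.31). Of the other clade B serpins SERPINB9 held 4 counts, SERPINB11 0 and SERPINB12 9 over all libraries, and these were not tested.

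**Figure D2:**
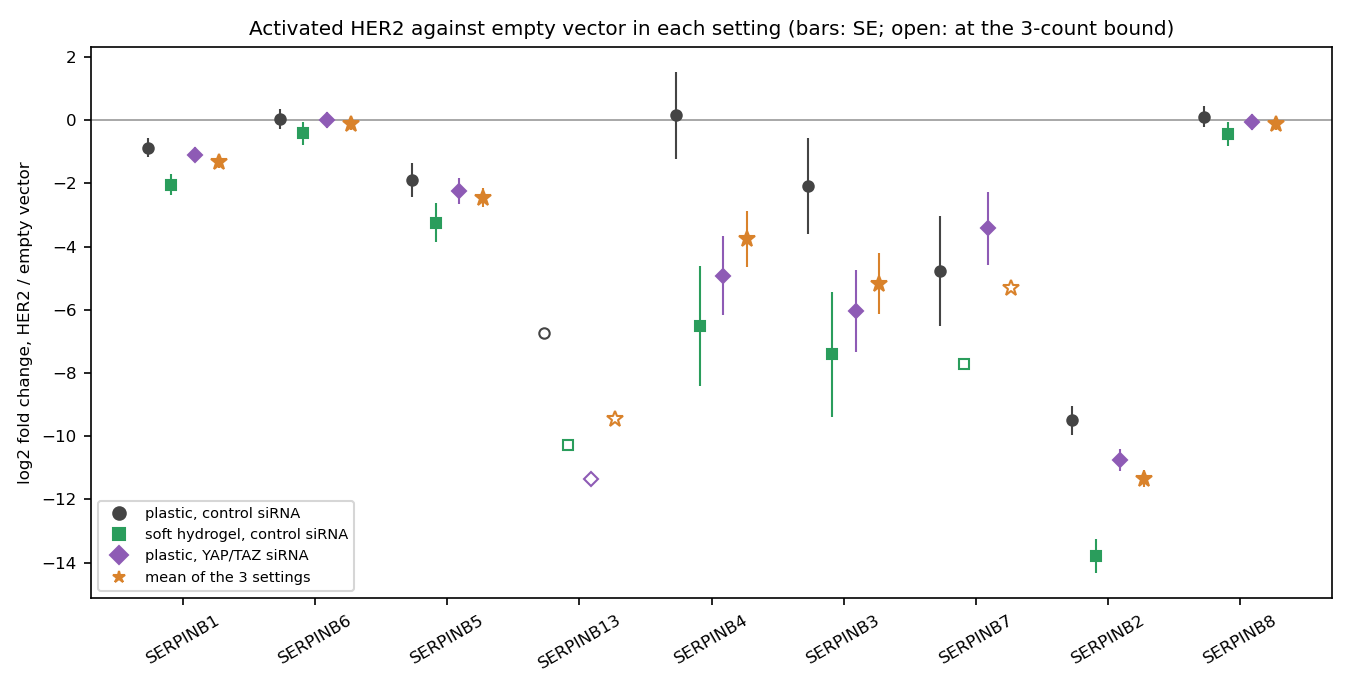
Log2 fold change of HER2 over empty-vector cells on the y axis for the 8 members and SERPINB6 on the x axis, in each of the 3 settings and as their mean (star), from the model of group means. Bars are standard errors, and open marks are bounds at 3 counts where the HER2 group held none. SERPINB2 runs from -9.50 to -13.78, SERPINB4 is at 0.15 on plastic and at -6.51 on the hydrogel, and SERPINB6 and SERPINB8 stay near 0.

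Taken setting by setting, the model of group means called 1 of the 8 members on plastic (SERPINB2; 0.8% of all genes were called lower), 1 on the hydrogel (SERPINB2; 1.34%) and 3 with YAP/TAZ siRNA (SERPINB2, SERPINB5 and SERPINB13; 4.13%). A second model added a term for reagent 3 against reagent 1, shared by both lines, which takes only the reagent difference common to both lines out of the spread. The rest stays in the spread, as for SERPINB3, SERPINB4 and SERPINB7, whose reagent differences ran in opposite directions in the lines (values below). In that model, called the reagent model below, 4 members were lower on plastic (13.2% of all genes lower), 6 on the hydrogel (14.6%) and 7 with YAP/TAZ siRNA (17.5%). The 4 on plastic were SERPINB1 (edgeR adjusted p = 0.0458), SERPINB2, SERPINB5 (0.0461) and SERPINB13 (0.00384). The hydrogel added SERPINB3 (0.0465) and SERPINB7 (0.0381), and SERPINB4 passed with YAP/TAZ siRNA (0.0442). Without control A or B the reagent model called 2 on plastic, SERPINB2 and SERPINB13. The spread of SERPINB13 in this model rests on controls A and B alone, because every HER2 library is at 0. Without A or B no spread of its own is left, so its call there cannot show that the decrease holds between replicates.

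The decrease followed neither chromosome run as a whole. On 18q21 the genes lie in the order PHLPP1, BCL2, KDSR, VPS4B, SERPINB5, SERPINB12, SERPINB13, SERPINB4, SERPINB3, SERPINB11, SERPINB7, SERPINB2, SERPINB10, HMSD, SERPINB8 and CDH7. SERPINB8 at one end of the serpin run did not pass, and at the other end VPS4B, an endosomal ATPase, fell by 0.58 ± 0.13 on the log2 scale (SE, edgeR adjusted p = 0.0297). BCL2, the inhibitor of apoptosis that lies beyond VPS4B and KDSR, rose by 2.0 ± 0.38 (SE, edgeR adjusted p = 0.0183). Over the 8 tested neighbours of the 18q21 run 1 was higher and 2 were lower, with a median log2 fold change of 0.14. Over all genes tested 10.2% were called higher and 15.6% lower, and the neighbours of neither run were tested against these shares. The other neighbour that fell was RNF152, a ubiquitin ligase of lysosomes that lies farther out than PHLPP1. It was at 2.89 to 21 CPM in empty-vector libraries and at 0 to 0.272 in HER2 libraries (edgeR adjusted p = 0.00375). Whether position on the chromosome has a part in these differences was not tested. On 6p25 SERPINB1 fell while SERPINB6, which lies beyond SERPINB9 in the same run, did not pass. Of 8 tested neighbours there 1 rose, NQO2, a quinone reductase, at 1.15 ± 0.18 (SE, edgeR adjusted p = 0.0111), and the median was -0.07.

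**Figure D3:**
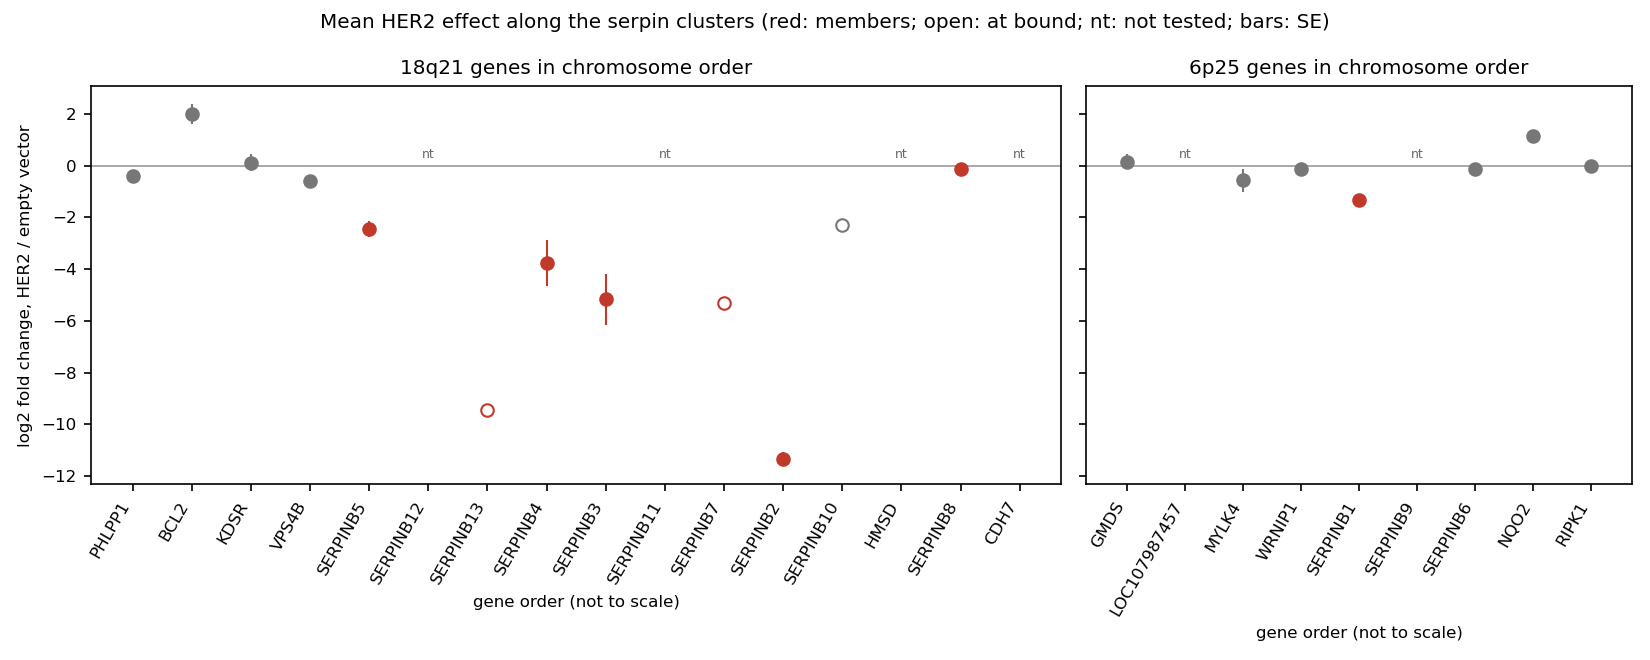
Mean log2 fold change of HER2 over empty-vector cells on the y axis for genes in chromosome order on the x axis (not to scale), with 18q21 on the left and 6p25 on the right. Red marks are the 8 members, grey marks are other genes, bars are standard errors, open marks are bounds, and nt marks genes that were not tested. The tested members from SERPINB5 to SERPINB2 are low and SERPINB10 beyond them is at a bound of -2.29. SERPINB8 is at -0.13 on one side. On the other side VPS4B is below 0 and BCL2, farther out, is at 2.0. RNF152 lies outside the genes drawn.

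The partners of these inhibitors were read from lists of their target proteases and of other inhibitors. Of 14 tested proteases that clade B serpins inhibit, 8 were lower and 0 higher in HER2 cells over the 3 settings, with a median log2 fold change of -2.25. Among all genes tested 15.6% were called lower there. KLK7 and KLK5, kallikreins of the epidermis, were at 24.9 to 1074 and 14 to 146 CPM in empty-vector libraries and at 0 to 0.348 and 0 to 0.0875 in HER2 libraries. ST14 (matriptase), a membrane serine protease of epithelia, fell by 3.19 ± 0.43 on the log2 scale (SE, edgeR adjusted p = 0.0078). PLAU, the urokinase that SERPINB2 inhibits, had a log2 fold change of -2.61 ± 0.81 that missed the threshold (edgeR adjusted p = 0.063), and PLAT, the other plasminogen activator, fell by 2.41 ± 0.37 (0.0105). PLAU was at 305 to 1548 CPM in empty-vector and at 13.6 to 585 in HER2 libraries, so unlike SERPINB2 its ranges overlapped. CTSL (cathepsin L), which SERPINB13 inhibits, pointed the other way, at 208 to 596 CPM in empty-vector and 539 to 2534 in HER2 libraries. Its log2 fold change of 1.37 ± 0.47 did not pass (SE, edgeR adjusted p = 0.0823), while in the reagent model it was 1.27 ± 0.21 and passed (0.00743). The targets of SERPINB1 made by leukocytes were at or near 0, with CTSG at 0 in all libraries and ELANE at 1 count in 1 library.

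Among 12 tested genes of plasminogen activation 2 were higher and 3 lower, and among 13 tested serpins of other clades 2 were higher and 3 lower, with a median of -0.72 with bounds. Over all genes tested 10.2% were called higher and 15.6% lower, and neither list was tested against these shares. SERPINE2, an extracellular inhibitor of thrombin and urokinase, rose by 2.37 ± 0.16 (SE, edgeR adjusted p = 0.00181), while SERPINF2, which inhibits plasmin, fell by 2.68 ± 0.34 (0.00668) and SERPINA1 and SERPINA3, inhibitors of neutrophil proteases, fell by 1.94 ± 0.28 (0.00892) and 1.57 ± 0.15 (0.00375). Of 22 tested epithelial protease inhibitors that are not serpins, 13 were lower and 0 higher. TIMP3, an inhibitor of metalloproteases, fell by 4.98 ± 0.21 (SE, edgeR adjusted p = 7.72e-04), and PI3 (elafin) was at 2.59 to 52.6 CPM against 0 to 0.29. Of 27 tested genes of squamous differentiation 16 were lower and 0 higher, with a median of -6.36 with bounds, and of 24 tested epithelial transcription factors 13 were lower and 0 higher, with a median of -1.78. IVL (involucrin), a protein of the cornified envelope, was at 4.22 to 113 CPM in empty-vector libraries and at 0 in all HER2 libraries, as SERPINB13 was. TP63, the master regulator of basal epithelium, fell by 7.28 ± 0.27 (SE, edgeR adjusted p = 7.03e-04).

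**Figure D4:**
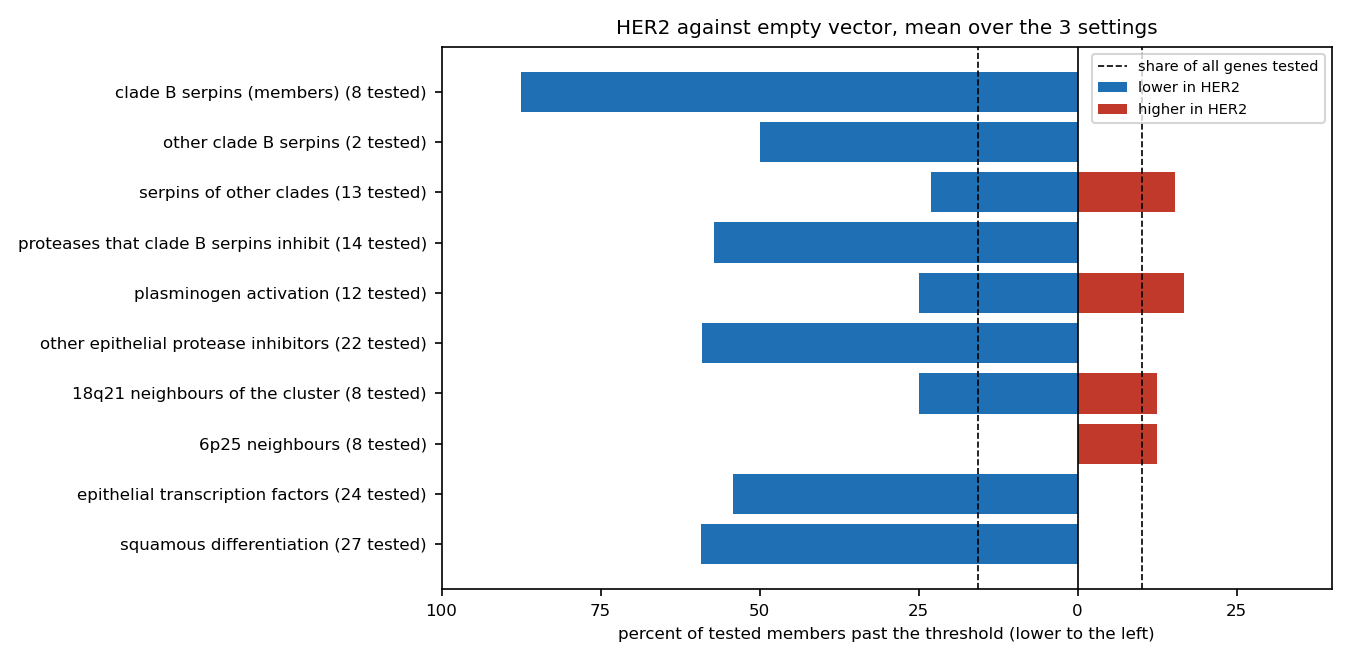
Percent of the tested genes of each list past the threshold in the HER2 comparison averaged over the 3 settings, lower to the left of 0 and higher to the right, on the x axis, with the lists and their numbers of tested genes on the y axis. Dashed lines mark the share of all genes tested, 15.6% lower and 10.2% higher. The 8 members have 7 lower and 0 higher, and the neighbours on 6p25 have 0 lower.

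On the soft hydrogel, empty-vector cells had higher levels of several members, but with 1 hydrogel library the model of group means called none of the genes (0 of 16117; DESeq2 called 1872, 3064 had an unadjusted p under 0.05, and the smallest edgeR adjusted p was 0.0502). Of the members, 4 had an unadjusted p under 0.05. From the values above, SERPINB2 on the hydrogel (428 CPM) and SERPINB1 (197) were higher than in both controls and both YAP/TAZ siRNA libraries. The reagent model called 3 members higher, where 10.2% of all genes were called higher. They were SERPINB1, with a log2 fold change of 1.37 ± 0.20 (SE, edgeR adjusted p = 0.0195), SERPINB2, with 1.43 ± 0.12 (0.00974), and SERPINB13, with 1.94 ± 0.17 (0.0141). These 3 calls were lost without control A (0.0878, 0.0692 and 0.0764) and without control B (0.101, 0.0643 and 0.0692). SERPINB4 had a larger log2 fold change, 4.87 ± 1.22 (edgeR adjusted p just over 0.05), and SERPINB3 was at 3.78 ± 1.18 (0.0811). DESeq2 called SERPINB1, SERPINB2, SERPINB3 and SERPINB4. SERPINB5, SERPINB7 and SERPINB8 were at 0.21 ± 0.42, -0.26 ± 1.09 and 0.02 ± 0.14 in the reagent model.

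Other epithelial genes showed higher levels on the hydrogel beside these members. In the reagent model 11 of 27 squamous differentiation genes rose and 0 fell, among them KRT13 at 4.03 ± 0.33 (SE, edgeR adjusted p = 0.00881), a keratin of stratified epithelia. Of the proteases 6 of 14 rose and 0 fell, with KLK7 at 4.49 ± 0.20 (edgeR adjusted p = 0.0035) and CTSS, a cysteine protease that SERPINB3 inhibits, at 3.55 ± 0.32 (0.00997). Of 22 other inhibitors 6 rose and 0 fell, SLPI by 3.25 ± 0.12 (0.00292).

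In HER2 cells on the hydrogel 0 of the 8 members passed in either model (0 genes in all in the model of group means, with 313 by DESeq2 and 1568 at an unadjusted p under 0.05, and 30, or 0.186%, in the reagent model). SERPINB5 was at 88.5 CPM on the hydrogel against 196 in the control, a log2 fold change of -1.14 ± 0.56 (SE, edgeR adjusted p = 0.577). SERPINB2 went from 5 counts to 2, a ratio of 7.69 with an exact 95% counting interval of 1.26 to 80.7. SERPINB3 and SERPINB4 were at -1.56 ± 1.72 and -1.78 ± 1.65, and SERPINB1 at 0.22 ± 0.33. The difference between the lines in response to the hydrogel was tested as an interaction. It called 0 genes in both edgeR models, although 1901 had an unadjusted p under 0.05, 3 of them members. DESeq2 called 500 genes, among them SERPINB2 (adjusted p = 0.0275) and SERPINB4 (0.0262). In the model of group means the differences were -4.28 ± 0.71 for SERPINB2 (edgeR adjusted p = 0.379) and -6.65 ± 2.18 for SERPINB4 (0.379), on the log2 scale. SERPINB13 at 0 in HER2 cells has no value here.

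**Figure D5:**
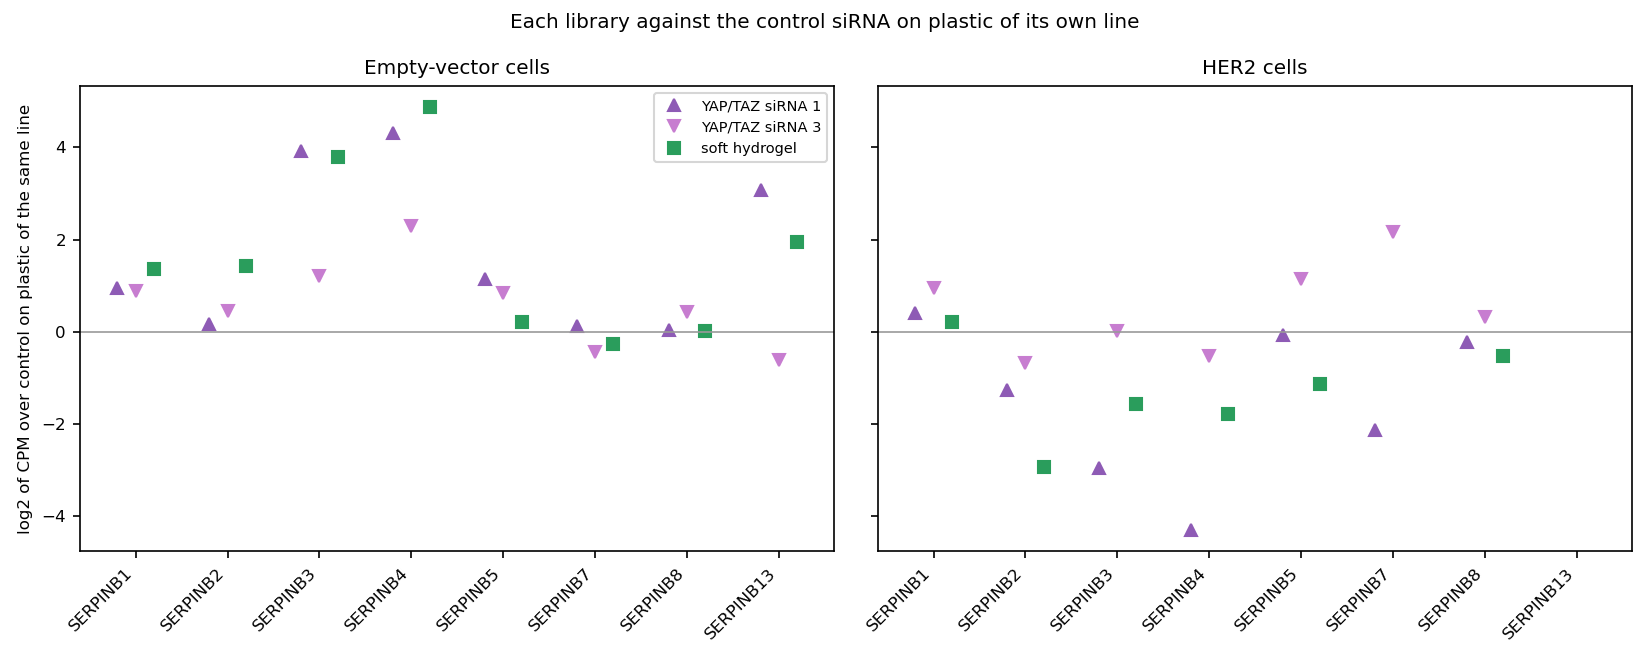
Log2 ratio of each library's CPM to the control siRNA on plastic of its own line on the y axis (mean of A and B in empty-vector cells, 1 library in HER2 cells) for the 8 members on the x axis. Triangles are YAP/TAZ siRNA 1 (up) and 3 (down) and squares the soft hydrogel. In empty-vector cells SERPINB1, SERPINB2, SERPINB3, SERPINB4, SERPINB5 and SERPINB8 are above 0 with all 3 marks, SERPINB8 barely so with siRNA 1 (0.04) and on the hydrogel (0.02). In HER2 cells the hydrogel marks of SERPINB2, SERPINB3, SERPINB4, SERPINB5 and SERPINB8 are below 0. In HER2 cells SERPINB13 has no value and SERPINB7 none on the hydrogel.

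YAP/TAZ siRNA in empty-vector cells gave 0 calls over all genes in the model of group means (2317 by DESeq2; 3473 had an unadjusted p under 0.05, 4 of them members). Both reagents stood above both controls for 5 members, SERPINB1, SERPINB2, SERPINB3, SERPINB4 and SERPINB5, an order of 2 against 2 libraries that 32% of all genes show in that direction. SERPINB7, SERPINB8 and SERPINB13 overlapped. The reagent model called 2 members higher (12.1% of all genes higher), and 1 of these rests on a single reagent. SERPINB1 was at 0.92 ± 0.17 on the log2 scale (SE, edgeR adjusted p = 0.022), with both reagents alike at 1.91 and 1.84 times the control level, and averaged over both lines it was at 0.80 ± 0.14 (0.0158; 14.5% of all genes were called higher there). That call over both lines was absent in the model of group means (edgeR adjusted p = 0.0806) and was lost in the reagent model without control A (0.056) or B (0.068). SERPINB13 was at 1.23 ± 0.15 (edgeR adjusted p = 0.0135), but siRNA 3 left it under both controls, and without siRNA 1 its log2 fold change was -0.59. In empty-vector cells neither call held without control A or B, with SERPINB1 at edgeR adjusted p-values of 0.128 and 0.166 and SERPINB13 at 0.128 and 0.119. SERPINB3 and SERPINB4 were at 2.86 ± 1.08 (0.114) and 3.57 ± 1.12 (0.0741), and DESeq2 called them together with SERPINB1. SERPINB5 was at 1.04 ± 0.35 (0.0895) in the reagent model. In the same model 10 of 27 squamous differentiation genes rose and 0 fell, among them IVL at 2.77 ± 0.19 (SE, edgeR adjusted p = 0.00708). The reagents did not agree over this list. IVL was at 113 CPM after siRNA 1 and 9.05 after siRNA 3, above controls A (4.22) and B (5.1). KRT13 was at 61.9 after siRNA 1 and 0.889 after siRNA 3, against 11.2 and 6.56 in the controls. TGM1 was at 314 and 3.99, against 25 and 19.6, so these 2 genes were above the controls with siRNA 1 only.

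With YAP/TAZ siRNA in HER2 cells 0 members passed in either model or by DESeq2, against 0 genes in all in the model of group means (536 by DESeq2, 1751 at an unadjusted p under 0.05) and 683, or 4.24%, in the reagent model. SERPINB5 was at 0.66 ± 0.50 and SERPINB1 at 0.70 ± 0.30 on the log2 scale (SE, edgeR adjusted p = 0.652 and 0.463). SERPINB3 and SERPINB4, high with both reagents in empty-vector cells, were at -0.83 ± 1.44 and -1.44 ± 1.37 (0.86 and 0.723). The test of the difference between lines called 0 genes in both edgeR models (34 by DESeq2 with 0 members among them, 736 at an unadjusted p under 0.05), so for no member was the siRNA response shown to differ between lines.

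The reagents differed from each other in several members, and not in the same direction in both lines. In empty-vector cells the level with siRNA 3 was 0.0789 times that with siRNA 1 for SERPINB13, 0.154 times for SERPINB3, 0.246 times for SERPINB4 and 0.675 times for SERPINB7. In HER2 cells the same ratio was 7.75 for SERPINB3, 13.5 for SERPINB4 and 19.3 for SERPINB7, from levels of at most 1.75 CPM and with 1 library a reagent, and SERPINB13 was at 0. For SERPINB8 both lines gave a similar ratio, 1.32 and 1.46. The shared term of the reagent model called 2 members, where 16.7% of all genes were called in either direction. SERPINB13 fell by 3.65 ± 0.22 on the log2 scale from siRNA 1 to siRNA 3 (SE, edgeR adjusted p = 0.00787), a value that comes from empty-vector cells alone. SERPINB8 rose by 0.47 ± 0.11 (SE, edgeR adjusted p = 0.0485), a call that was lost with no filter on low counts (0.0625) and without control A (0.279) or B (0.28), and SERPINB6 was at 0.45 ± 0.11 (0.0474). Squamous differentiation genes were lower with siRNA 3, 13 of 27 passing and 0 higher, and KRT13 fell by 6.11 ± 0.48 (edgeR adjusted p = 0.00724). YAP1 itself was at 14.3 CPM with either reagent in empty-vector cells, and WWTR1 at 14.0 with siRNA 1 and 21.6 with siRNA 3. In HER2 cells YAP1 was at 9.75 CPM with siRNA 1 and 18.9 with siRNA 3, and WWTR1 at 29 and 48.2. The share of the depth of depletion in the differences between reagents was not tested.

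The genes whose level ran most like each member were ranked by Pearson's r of log2 CPM over the 9 libraries among 9974 candidates. These libraries fall into 2 lines, so r follows the difference between lines for most members and is given as a description. SERPINB2 ran with ESRP1 (r = 0.995), an epithelial splicing regulator, KRT17 (0.993) and SFN (0.991). SERPINB13 ran with DSG3, the desmosomal cadherin of basal layers, and S100A14 (both 0.994) and with DEF6 (0.992). SERPINB5 ran with MICAL1 (0.993), ITPR3 (0.989) and FLRT3 (0.987), and SERPINB1 with FRK (0.992), TMEM159 (0.991) and CPE (0.989). SERPINB7 ran with DFNA5 (0.985), L1CAM (0.983) and DAAM1 (0.982). The closest to SERPINB3 were OFD1 (0.979), TLE4 (0.978) and RSRP1 (0.972), and to SERPINB4 MAVS (0.964), VSIG10 (0.957) and TNNT1 (0.949). SERPINB8, which does not separate the lines, ran with SKIL (0.982), ZDHHC20 (0.976) and CD59 (0.973).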

How the data were processed

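RNA-seq counts of 9 libraries were analysed. The deposited table held whole-number counts for each symbol, which the authors had not normalized. Per the submitters' processing notes, STAR 2.5.3a, featureCounts and edgeR were used with build hg19. The annotation, the use of strand and the handling of reads that map to several places are not given in the sources used here. Reads shared by near copies or overlapping genes can therefore shift single members. Totals were 24425556 to 78945981 counts, and 0 columns fell outside the samples. 1 entry had no symbol and 0 counts.

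Counts were fitted in R 4.3.3 with edgeR 4.0.16 (filterByExpr with a minimum count of 10, TMM, glmQLFit and glmQLFTest, 6 group means, 3 residual degrees of freedom, biological coefficient of variation 0.408). Groups of 1 library were assumed to vary like the others. P-values were adjusted by Benjamini-Hochberg over 16117 genes at 0.05. The reagent model added siRNA 3 against siRNA 1 as a replicate block (2 residual degrees of freedom, coefficient 0.209). The labels give the same reagent numbers in both lines, and the reagent difference correlated between lines at r = 0.42 over 16117 genes (2 pairs). Standard errors are the log2 fold change over the root of F. Alternatives were RLE and upper-quartile scaling, other filters, DESeq2 1.42.0, the replicate block and leaving out libraries; leaving out the HER2 control on plastic and summing SERPINB3 and SERPINB4 were chosen after seeing the data. The fits were tested on simulated data. The members and lists were chosen with earlier results of these data known. All 8 members are named, and genes of each other list come from the 4 with the largest fold change in that comparison and a mean log2 CPM of at least 0; CTSL, CTSG, ELANE, SERPINB9 to SERPINB12 and the marker genes were named after their values were seen. Lengths, names and gene order came from GENCODE v29 and RefSeq (GRCh38), another build than that of the files, and no position in the files was used.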

Additional observations from a re-analysis of the deposited data

How the results depend on the processing

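In the mean HER2 comparison the 7 calls held under 12 of 15 alternatives, and 6 held without control A, control B or empty-vector siRNA 1, SERPINB4 being lost, so the count ran from 6 to 7 when a library was left out. Counts of members called elsewhere moved with the setting. DESeq2 called 4 on plastic, 7 on the hydrogel and 7 with YAP/TAZ siRNA in the HER2 comparisons, against 1, 1 and 3; 4 and 3 for the hydrogel and the siRNA in empty-vector cells, 1 and 1 for their means over both lines and 2 for the hydrogel interaction, against 0 each. The replicate block gave 4, 6 and 7 in the HER2 comparisons, 3 and 2 in empty-vector cells, and 1 and 1 for the means over both lines; it changed no other count. With no filter on low counts the counts were 4 on the hydrogel, 6 with YAP/TAZ siRNA, and 1 between reagents against 2. Leaving out a library gave 0 to 3 on plastic, 1 to 5 on the hydrogel and 1 to 5 with YAP/TAZ siRNA in the HER2 comparisons, 0 to 2 for the hydrogel and for the siRNA in empty-vector cells, 0 to 2 for the siRNA over both lines and 1 between reagents. With the block and without control A or B they were 2 on plastic, 6 to 7 on the hydrogel and 7 with YAP/TAZ siRNA. In these last fits SERPINB13 was among the members called but had no spread of its own. The cause of the moves in these counts was not tested. Over 98 results of single members and 1350 recomputed values 28 changed sign, 0 of them past the threshold before or after. One of these is the sum of SERPINB3 and SERPINB4, at -1.30 on plastic for the pair against 0.15 for SERPINB4 alone. Leaving out 1 library gave the other log2 ranges. SERPINB8 ran from -0.36 to 0.16 in the HER2 comparison with YAP/TAZ siRNA, and from -0.02 to 0.09 on the hydrogel in empty-vector cells, where no filter gave -0.05. For the siRNA in empty-vector cells SERPINB13 ran from -0.59 (without siRNA 1) to 3.04 and SERPINB7 from -0.44 to 0.10, and SERPINB7 was at 0.07 with the replicate block (0.12 without A and 0.29 without B as well). For the siRNA in HER2 cells SERPINB3 ran from -2.93 to 0.00, SERPINB5 from -0.07 to 1.13, SERPINB7 from -2.09 to 2.14 and SERPINB8 from -0.21 to 0.32, each turning on which reagent was kept. Over both lines SERPINB4 ran from -0.31 to 1.54 and SERPINB7 from -1.11 to 1.00. The siRNA interaction ran from -0.51 to 0.05 for SERPINB1, -1.07 to 0.14 for SERPINB5, -1.96 to 2.29 for SERPINB7 and -0.46 to 0.08 for SERPINB8. Between reagents SERPINB4 was at 0.08 without A or B, and DESeq2 gave 0.08 for SERPINB3 and 0.61 for SERPINB4. Depth limits SERPINB2 in HER2 cells, with 21 counts over 4 libraries, and SERPINB13 there and SERPINB7 on the hydrogel, where 0 counts leave the size of the decrease as a bound.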
